A study of Homo sapiens with 12 samples.

Results

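The departure of combined treatment from the sum of its single drugs was measured for each gene in MV4-11, a human acute myeloid leukemia (AML) cell line that the study uses as a FLT3-ITD mutant and whose genotype the labels give as wild-type. For every gene the change after mitoxantrone in the presence of gilteritinib was set against the change after mitoxantrone alone: (Drug-combination − Gilteritinib) − (Mitoxantrone − DMSO), from group means of log2(FPKM + 1). This difference is called the interaction here. A value of 0 means that the changes of the single drugs add up on the log2 scale, which is to say that their folds multiply. A value below 0 means that the combination lies lower than that sum, and a value above 0 that it lies higher. Of 43876 genes in the table, 18574 had an FPKM (fragments scaled to transcript length and to the mapped total of the library) of at least 1 in at least 3 of the 12 libraries and were measured in this way. They include 10506 protein-coding genes.

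The 4 groups held 3 libraries each, all from cells harvested after 24 h. Cells received DMSO as vehicle, 20 nM Mitoxantrone, 25 nM Gilteritinib, or both drugs as Drug-combination at 20 nM mitoxantrone and 20 nM gilteritinib. The study calls the mitoxantrone a liposome preparation, while the library labels give the drug name only. The gilteritinib dose was therefore not the same alone and combined, and a departure from the sum cannot be told apart from a response to the 20 nM instead of the 25 nM dose. Nothing in the labels says that the replicates were separate cultures, so p-values measure the spread between these libraries, which may be technical. No other cell line, dose or time was compared.

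Mitoxantrone traps topoisomerase II on cleaved DNA, which leaves double-strand breaks and activates p53. Gilteritinib inhibits the receptor tyrosine kinase FLT3, whose internal tandem duplication keeps STAT5, ERK and PI3K-AKT signaling switched on. Sterol synthesis, glycolysis, the DNA replication machinery and the feedback genes of ERK all lie downstream of growth factor signaling in leukemia cells.

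Recovered from the steps of the FPKM values, depth ranged from 31724995 to 41330642 fragments per library. Libraries with replicate number 1 stood apart. Over 2595 genes, the count chi-square per gene was between 2.7 and 5.12 for replicates 2 and 3 of a group and between 9.28 and 14.2 for replicate 1 against either. Results below use all 12 libraries, and for the whole table, many classes and some genes replicate numbers 2 and 3 alone are given as well. The 8 markers of AML blasts, FLT3 among them, summed to between 355 and 441 FPKM in every library. The 9 lymphocyte markers summed to at most 15.3 FPKM, and erythroid and stromal markers to less.

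No gene departed from the sum at an adjusted p under 0.05 with all 12 libraries (0% of 18574, limma with Benjamini-Hochberg adjustment), and the smallest adjusted p in that fit was 1.0. At an unadjusted p under 0.05 limma listed 541 genes (2.91% of those tested), 266 above 0 (1.43%) and 275 below 0 (1.48%). That share is lower than the 0.05 that the threshold would list if no gene departed. With the replicate number as a block the adjusted count was again 0 and the unadjusted count 1375, of which 662 lay above 0 (3.56% of genes tested) and 713 below 0 (3.84%). The median interaction over the genes tested was −0.01 and the median standard error was 0.22. Values above and below 0 cancel in that median, so it does not give the size of a typical departure. Gene by gene, 90% of interactions lay between −0.45 and 0.37.

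With replicate numbers 2 and 3 alone, 552 genes passed the adjusted threshold (2.97%, limma with Benjamini-Hochberg adjustment), 316 above 0 (1.7%) and 236 below 0 (1.27%). That fit leaves out replicate number 1, which stood apart, so its standard errors and p-values measure only the spread between libraries 2 and 3. Of these 552 genes, 179 were also among the 541, and both fits hold the libraries of numbers 2 and 3. Over the 7498 protein-coding genes with a mean FPKM of at least 5, the interaction at number 2 correlated with that at number 3 across genes with Pearson's r = 0.719. The correlation was −0.10 between numbers 1 and 2 and 0.08 between numbers 1 and 3. Over all 18574 genes, weakly expressed ones included, it was 0.284 between numbers 2 and 3, −0.033 between 1 and 2 and 0.0332 between 1 and 3. The 3 numbers share no library, but genes are not independent replicates and libraries 2 and 3 also resembled each other in composition. The standard deviation across the 7498 genes was 0.159 at number 1, 0.322 at number 2 and 0.334 at number 3, and across all genes 0.362, 0.522 and 0.514. Departures from the sum were thus wider at numbers 2 and 3 than at number 1.

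**Figure D1:**
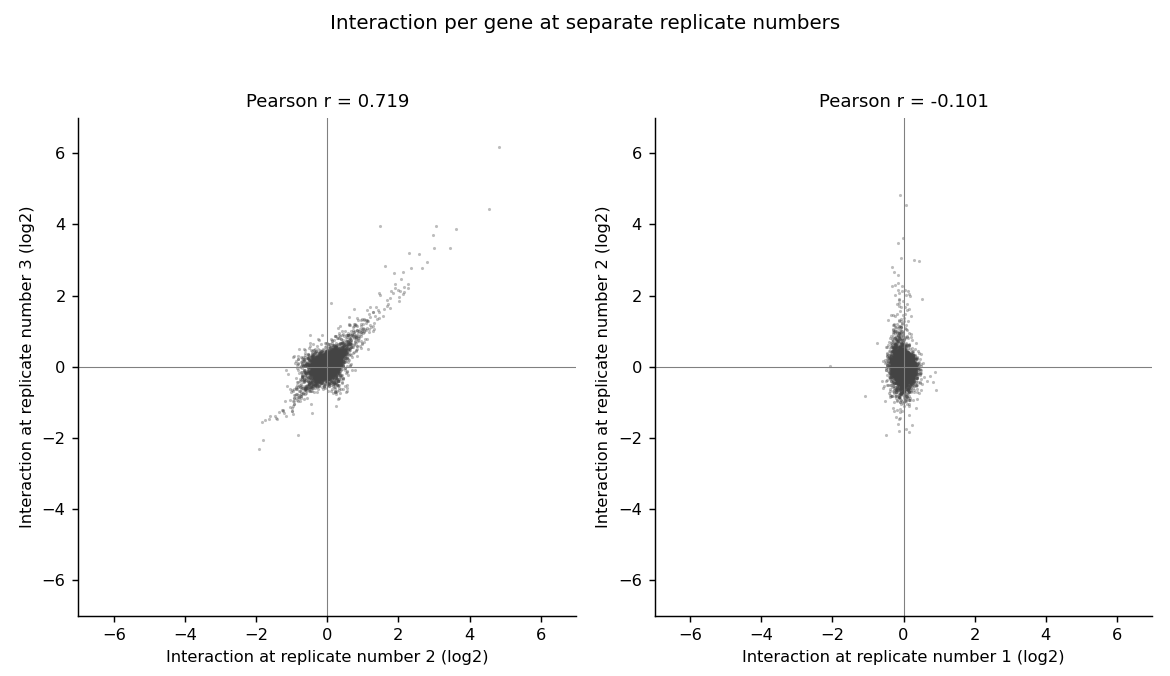
Interaction of each of 7498 protein-coding genes (points; log2 scale on both axes) at replicate number 2 against number 3 (left, r = 0.719) and at number 1 against number 2 (right, r = −0.101). On the left the points lie along a diagonal, and on the right they form an upright cloud that is narrow at number 1.

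The departures had one main form: the combination lay nearer to DMSO than the sum of the single changes. Among the 275 genes below 0, mitoxantrone alone gave a higher level than DMSO in 270, with a median difference of 0.42, while the median of Drug-combination against DMSO was 0.01. Among the 266 genes above 0, both single drugs gave a lower level than DMSO in 262. There the median differences were −0.37 for mitoxantrone, −0.31 for gilteritinib and −0.07 for the combination. The contrast favors this opposition of signs in any gene, since it subtracts the single changes: across the whole table, 56.0% of those above 0 had both single changes negative, and 84.4% of those below 0 had a positive change after mitoxantrone alone. These figures describe the genes listed and test nothing.

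Cholesterol synthesis genes lay farthest below the sum of the 24 gene classes examined. Their median interaction was −0.49 over 24 genes, 23 of them below 0, against −0.01 for the whole table, where 9775 of 18574 genes lay below 0. By unadjusted p, 5 of the 24 passed 0.05 below 0 (background 1.48%), or 13 with the replicate block (background 3.84%). The 5 were MVK, TM7SF2, MVD, which makes isopentenyl diphosphate, EBP, a sterol isomerase, and STARD4, a sterol carrier. With numbers 2 and 3 alone, 19 of 24 passed the adjusted threshold below 0 (limma, Benjamini-Hochberg; background 1.27%). The class median was −0.78 at number 2 and −0.70 at number 3, but 0.02 at number 1, where 14 of 24 members lay above 0. The single-drug values locate the difference: mitoxantrone alone gave a class median of 0.63 and 0.73 above DMSO at numbers 2 and 3 and −0.05 at number 1, and in the presence of gilteritinib it gave −0.06, −0.04 and −0.01. Gilteritinib alone differed from DMSO by a median of −0.03.

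HMGCS1 (chr5:43289395-43313512, GRCh38), the synthase that commits acetyl groups to the mevalonate pathway, had 42.9, 30.9 and 31.9 FPKM in DMSO replicates 1 to 3. It had 32.2, 86.8 and 89.5 FPKM in Mitoxantrone, 33.5, 32.8 and 32.1 in Gilteritinib, and 29.8, 28.8 and 32.1 in Drug-combination. Mitoxantrone replicates 2 and 3 stood above all other libraries, and Mitoxantrone replicate 1 lay within the range of DMSO. The sum of the single changes would put the combination at 59.5 FPKM. The interaction was −0.95 ± 0.44 (SE; unadjusted p = 0.0522, limma) with all 12 libraries, and −1.55 ± 0.08 with replicate numbers 2 and 3 (adjusted p = 0.00116, limma with Benjamini-Hochberg adjustment).

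SQLE, which oxidizes squalene, had 52.8, 65.1 and 64.5 FPKM in DMSO, 48.0, 133 and 139 in Mitoxantrone, 45.8, 61.5 and 65.4 in Gilteritinib and 39.3, 60.2 and 63.9 in Drug-combination. Mitoxantrone replicates 2 and 3 were again the highest libraries and replicate 1 was not, and the interaction at numbers 2 and 3 was −1.09. INSIG1, which holds the sterol sensor in the endoplasmic reticulum, followed the same pattern, with 91.2, 211 and 231 FPKM in Mitoxantrone against 102, 124 and 123 in DMSO, 91.9, 101 and 103 in Gilteritinib and 83.3, 97.4 and 107 in Drug-combination. MVD, which passed the unadjusted threshold below 0, had 13.7, 12.2 and 12.2 FPKM in DMSO, 13.8, 29.4 and 25.4 in Mitoxantrone, 10.5, 13.5 and 13.5 in Gilteritinib and 12, 12 and 10.9 in Drug-combination. HMGCS1, SQLE and INSIG1 did not reach an unadjusted p under 0.05 with all 12 libraries, and these 4 genes were picked for display after their values were seen.

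At every replicate number, 9 of the 24 sterol genes lay below 0, among them the 2 with the smallest p, TM7SF2 and MVK. With 0 of 24 above 0 throughout, these 9 were all the members with the same sign at all 3 numbers. Over all genes tested, 28.4% had the same sign, above or below 0, at all 3 numbers. Below 0 lay 10 of the 24 at number 1, 23 at number 2 and 24 at number 3. TM7SF2, a sterol reductase late in the pathway, had 4.45, 5.14 and 4.68 FPKM in DMSO, 8.24, 8.11 and 9.26 in Mitoxantrone, 5.01, 4.81 and 4.14 in Gilteritinib, and 6.5, 5.08 and 5.57 in Drug-combination. Its 3 mitoxantrone libraries lay above the other 9, replicate 1 included. Its interactions at the 3 numbers were −0.44, −0.51 and −0.50, with a mean of −0.48 ± 0.15 (SE; unadjusted p = 0.00882, limma). MVK, mevalonate kinase, had 6.73, 5.38 and 5.41 FPKM in DMSO, 7.53, 8.91 and 8.1 in Mitoxantrone, 5.06, 5.75 and 5.43 in Gilteritinib and 5.14, 4.79 and 5.34 in Drug-combination, with interactions of −0.13, −0.86 and −0.53. Again no mitoxantrone library overlapped the other groups. The overlap of exons with VPS51 on the same strand (TM7SF2) and with MMAB on the opposite strand (MVK) could add reads to either gene, since the counting by strand is not stated.

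Promoters of these genes are shown because 5 motifs were searched in 4 classes: sterol, DNA replication, G1 and S phase, and immediate early genes. The window runs from 250 bases before to 50 after the transcript start in RefSeq (GRCh38.p14), and both strands were read. The box bound by NF-Y, CCAAT, occurred in 15 of the 18 sterol genes with a window (83.3%) and in 34.6% of all 35116 promoters. It also occurred in 58.5% of replication and 61.1% of immediate early windows, so it was not particular to the sterol genes. The sterol regulatory element TCACNCCAC occurred in 1 of 18, that of SREBF2, and in 1.13% of all promoters. TGACGTCA (CRE) and TGANTCA (AP-1) occurred in 0 of 18. The letters say nothing about binding, and members without a window were not read. Capitals mark CCAAT or its complement in the windows of HMGCS1 (chr5:43313363-43313662, minus strand), MVK (chr12:109573544-109573843, plus strand) and TM7SF2 (chr11:65111622-65111921, plus strand), chosen because they hold it.
HMGCS1: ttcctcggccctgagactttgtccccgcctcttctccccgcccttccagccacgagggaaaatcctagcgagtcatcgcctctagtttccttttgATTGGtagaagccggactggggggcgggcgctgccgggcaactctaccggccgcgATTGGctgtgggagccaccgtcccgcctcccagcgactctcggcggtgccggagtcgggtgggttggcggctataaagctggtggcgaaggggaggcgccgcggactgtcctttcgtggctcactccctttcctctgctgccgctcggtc
MVK: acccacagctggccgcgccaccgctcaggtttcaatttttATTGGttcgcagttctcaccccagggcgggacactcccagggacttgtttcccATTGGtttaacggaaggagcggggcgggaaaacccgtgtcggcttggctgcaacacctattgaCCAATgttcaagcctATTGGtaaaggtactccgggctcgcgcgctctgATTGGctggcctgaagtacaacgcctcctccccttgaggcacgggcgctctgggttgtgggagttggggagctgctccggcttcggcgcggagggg
TM7SF2: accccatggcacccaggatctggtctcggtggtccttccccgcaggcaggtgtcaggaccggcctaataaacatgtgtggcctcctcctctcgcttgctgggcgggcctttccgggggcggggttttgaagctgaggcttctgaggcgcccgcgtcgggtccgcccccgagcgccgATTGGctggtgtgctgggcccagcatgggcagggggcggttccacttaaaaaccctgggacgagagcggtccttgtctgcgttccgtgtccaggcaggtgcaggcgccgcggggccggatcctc

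DNA replication genes lay on the other side of 0, by smaller amounts. Their median interaction was 0.16 over 48 genes, 46 of them above 0, and the medians at numbers 1, 2 and 3 were 0.04, 0.19 and 0.26. The class median after mitoxantrone differed from DMSO by −0.23, and from Gilteritinib by −0.07 when that drug was present. At an unadjusted p under 0.05, 5 of 48 lay above 0 (background 1.43%), or 11 with the replicate block (background 3.56%), and with numbers 2 and 3 alone 8 of 48 passed the adjusted threshold above 0 (limma, Benjamini-Hochberg; background 1.7%). The median GC content of the class was 45.7%, and with a correction for GC content and length its median stayed at 0.16.

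WDHD1 (chr14:54938950-55027105, GRCh38), which links the replicative helicase to DNA polymerase alpha, had 16.8, 15.1 and 15.9 FPKM in DMSO, 12.3, 13.1 and 12.5 in Mitoxantrone, 15.9, 14.5 and 14.6 in Gilteritinib and 14.6, 15.0 and 15.2 in Drug-combination. Mitoxantrone libraries were the lowest and the combination lay among the libraries without mitoxantrone. The interaction was 0.30, 0.24 and 0.38 at the 3 numbers, with a mean of 0.31 ± 0.09 (SE; unadjusted p = 0.00771, limma). PRIM2, the large subunit of primase, had 21.9, 23 and 21.2 FPKM in DMSO, 18.2, 18.1 and 18.4 in Mitoxantrone, 22.0, 21.3 and 20.6 in Gilteritinib and 21.0, 21.6 and 21.0 in Drug-combination. RFC3, a subunit of the loader of the PCNA clamp, had 48.6, 43.8 and 42.9 FPKM in DMSO, 35.5, 33.2 and 35.9 in Mitoxantrone, 48.5, 42.7 and 41.9 in Gilteritinib and 41.8, 41.6 and 46.2 in Drug-combination. In both genes the mitoxantrone libraries did not overlap with any other group. The remaining members at that threshold were DSCC1, which loads the clamp for sister chromatid cohesion, at 0.51, and RFC1, the large loader subunit, at 0.18.

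The motif bound by E2F factors (TTTGGCGC or TTTCCCGC) occurred in 16 of 41 replication promoters with a window (39.0%), in 5 of 23 of G1 and S phase genes (21.7%) and in 2.27% of all promoters. It is shown in capitals for the members with a match and the smallest p, RFC3 (chr13:33817899-33818198, plus strand) and GINS1 (chr20:25407423-25407722, plus strand), whose product belongs to the helicase.
RFC3: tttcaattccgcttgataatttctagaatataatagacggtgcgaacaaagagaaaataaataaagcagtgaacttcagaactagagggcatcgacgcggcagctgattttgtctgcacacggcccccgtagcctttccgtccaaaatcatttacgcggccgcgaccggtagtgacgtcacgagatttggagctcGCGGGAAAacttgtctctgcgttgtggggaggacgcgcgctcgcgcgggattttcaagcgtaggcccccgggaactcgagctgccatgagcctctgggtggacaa
GINS1: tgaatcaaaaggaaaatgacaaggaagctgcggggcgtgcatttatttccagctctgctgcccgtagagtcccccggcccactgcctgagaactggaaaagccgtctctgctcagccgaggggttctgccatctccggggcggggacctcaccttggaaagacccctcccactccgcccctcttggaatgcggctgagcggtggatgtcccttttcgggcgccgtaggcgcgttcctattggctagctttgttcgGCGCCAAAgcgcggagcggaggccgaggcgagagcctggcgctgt

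Genes of DNA damage signaling and repair gave a median of 0.14, with 50 of 55 above 0 and 4 above 0 at an unadjusted p under 0.05 (background 1.43%), or 8 with the replicate block (background 3.56%). The 4 were H2AFX, TOPBP1, BARD1, the partner of BRCA1, and FANCI, of crosslink repair. TOPBP1, which activates the ATR checkpoint kinase, had 47.6, 42.5 and 43.5 FPKM in DMSO, 36.8, 35.7 and 35.8 in Mitoxantrone, 45.0, 41.9 and 41.9 in Gilteritinib and 39.3, 41.2 and 43.2 in Drug-combination. Its mitoxantrone libraries were the lowest of the 12 and its interaction was 0.24 ± 0.09 (SE). G1 and S phase genes gave a median of 0.12, with 26 of 28 above 0. Of the 28, 2 passed the unadjusted threshold above 0 (background 1.43%), DUT, which removes dUTP, and CDKN2C, an inhibitor of CDK4 and CDK6. G2 and mitosis genes gave 0.04, and 0 of 46 passed an unadjusted p under 0.05 in limma. With numbers 2 and 3 alone, 3 of 55 repair genes, 4 of 28 G1 and S phase genes and 1 of 46 G2 and mitosis genes passed the adjusted threshold above 0 (limma, Benjamini-Hochberg). The background was 1.7%, and in each of these classes 0 genes passed below 0. Among the G1 and S phase genes, the cyclin A gene CCNA2 had 74.3, 67.7 and 68.0 FPKM in DMSO, 53.1, 52.1 and 55.7 in Mitoxantrone, 82.8, 62.9 and 66.4 in Gilteritinib and 57.2, 67.7 and 72.5 in Drug-combination. Its combination replicate 1 lay with the mitoxantrone libraries and replicates 2 and 3 with DMSO. Its interaction was −0.05, 0.48 and 0.41 by number, with a mean of 0.28 ± 0.16 (SE). CDK2, the kinase that cyclin A activates, gave 0.10 ± 0.19.

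**Figure D2:**
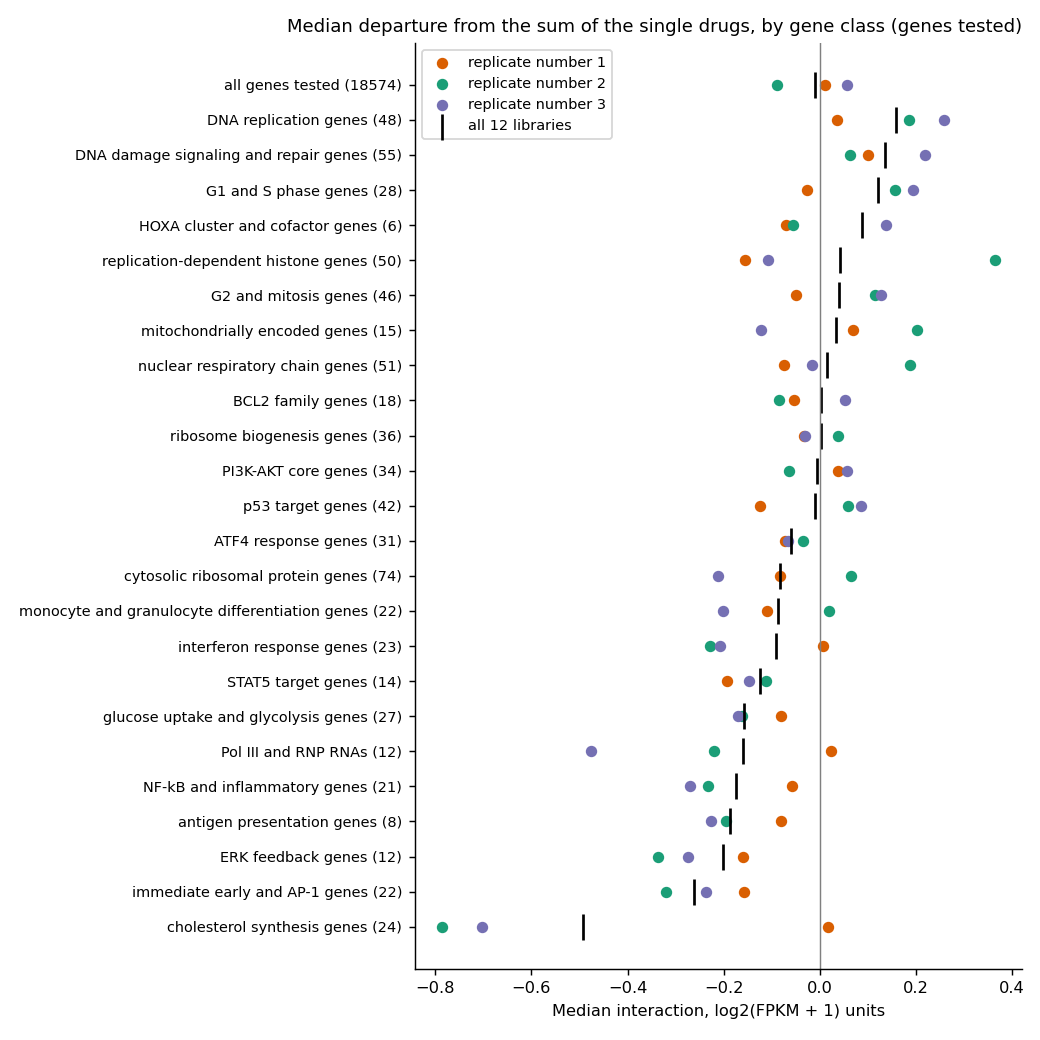
Median interaction (log2(FPKM + 1) units, horizontal axis) of the 24 gene classes and of all genes tested, at each replicate number (colored points) and over all 12 libraries (black bars), with the number of genes tested in brackets. Cholesterol synthesis genes lie lowest at numbers 2 and 3 (−0.785 and −0.703) and near 0 at number 1 (0.0175), while DNA replication genes lie above 0 at all 3 numbers.

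The medians of 5 signaling and inflammatory classes lay below 0 at all 3 numbers. ERK feedback genes had a median of −0.20, with 10 of 12 below 0 and medians of −0.16, −0.34 and −0.275. Immediate early and AP-1 genes had a median of −0.26, with 17 of 22 below 0, and −0.14 when only genes with a mean FPKM of at least 5 were kept. STAT5 targets had −0.125, NF-kB and inflammatory genes −0.175 and antigen presentation genes −0.19. For each of these 5 classes the median of mitoxantrone against DMSO was positive, from 0.16 to 0.30, and that in the presence of gilteritinib was lower, from 0.01 to 0.09. At an unadjusted p under 0.05, 2 of 22 immediate early genes lay below 0 (background 1.48%), BTG2 and the AP-1 subunit gene FOSB, and 1 above (background 1.43%), JUND. The other classes held 0 in either direction. With the replicate block, 7 of 22 immediate early genes, 4 of 14 STAT5 targets, 2 of 12 ERK feedback genes, 5 of 21 NF-kB genes and 3 of 8 antigen presentation genes lay below 0 at that threshold, against 3.84% of all genes. With numbers 2 and 3 alone, the counts below 0 at the adjusted threshold (limma, Benjamini-Hochberg) were 8, 4, 3, 5 and 0 in the same order, against 1.27% of all genes. Above 0 there was 1 immediate early gene and 0 in the other classes. Without DMSO replicate 1 the medians came closer to 0, at −0.01 for ERK feedback and −0.10 for immediate early genes, and without Drug-combination replicate 1 that of STAT5 targets was 0.11.

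BTG2, an antiproliferative gene induced by p53 and by growth signals, had 9.02, 13.1 and 13.5 FPKM in DMSO and 25.2, 42.9 and 43.2 in Mitoxantrone. It had 9.81, 11.7 and 12.9 FPKM in Gilteritinib and 23.8, 16.0 and 16.3 in Drug-combination. Mitoxantrone gave the highest libraries, and the combination lay between it and DMSO. The interaction was −0.90 ± 0.33 (SE; unadjusted p = 0.019, limma) and −1.25 at numbers 2 and 3 (adjusted p = 0.00157, limma with Benjamini-Hochberg adjustment). DUSP2, a nuclear phosphatase that switches ERK off, had 6.27, 8.3 and 7.33 FPKM in DMSO, 7.68, 9.93 and 9.79 in Mitoxantrone, 6.07, 7.37 and 7.65 in Gilteritinib and 5.52, 6.73 and 6.87 in Drug-combination. At each number mitoxantrone was above DMSO, and the combination below gilteritinib. EGR1, an immediate early transcription factor, and PIM1, a kinase gene induced by STAT5, had low replicate 1 libraries in all groups. EGR1 had 10.4, 30.6 and 33 FPKM in DMSO, 11.2, 54.2 and 51.5 in Mitoxantrone, 4.29, 26.0 and 26.3 in Gilteritinib and 4.3, 23.9 and 23.2 in Drug-combination. PIM1 had 18.5, 58.9 and 60.0 FPKM in DMSO, 27.7, 95 and 101 in Mitoxantrone, 7.75, 63.1 and 66.2 in Gilteritinib and 9.19, 56.8 and 56.4 in Drug-combination. Within numbers 1, 2 and 3 the interaction was −0.10, −0.92 and −0.80 for EGR1 and −0.33, −0.83 and −0.96 for PIM1, below 0 throughout. From group means it was −0.60 ± 1.2 and −0.71 ± 1.31 (SE), and leaving out Drug-combination replicate 1, which breaks the pairing, gave 0.13 and 0.12.

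Glucose uptake and glycolysis genes had a median of −0.16, with 21 of 27 below 0, 2 of them (PGD and PKM) at an unadjusted p under 0.05 (background 1.48%) and 7 with the replicate block (background 3.84%), and medians of −0.08, −0.16 and −0.17 by number. With numbers 2 and 3 alone, 6 of 27 passed the adjusted threshold below 0 (limma, Benjamini-Hochberg, background 1.27%) and 0 above. PGD, of the pentose phosphate pathway, had 87.8, 91.0 and 90.2 FPKM in DMSO, 127, 115 and 123 in Mitoxantrone, 88.8, 89.5 and 93.3 in Gilteritinib and 102, 92.6 and 90.2 in Drug-combination. The 3 mitoxantrone libraries lay above the other 9, and the interaction was −0.37 ± 0.09 (SE; unadjusted p = 0.00211, limma). PKM, the last kinase of glycolysis, had 201, 218 and 208 FPKM in DMSO, 232, 240 and 254 in Mitoxantrone, 238, 221 and 222 in Gilteritinib and 220, 220 and 218 in Drug-combination, with an interaction of −0.26 ± 0.09 (SE). Other named genes below 0 included CD82, a membrane tetraspanin, at −0.55 ± 0.13, AACS, which feeds acetoacetate into lipid synthesis, at −0.54 ± 0.14, PLOD1, a collagen lysyl hydroxylase, at −0.29 ± 0.09, and PLEKHO2 at −0.50 ± 0.16. CD82 had 11.3, 11.7 and 11.7 FPKM in DMSO, 17.1, 19.7 and 21.1 in Mitoxantrone, 13.1, 13.3 and 12.9 in Gilteritinib and 16.5, 14.0 and 13.2 in Drug-combination. Here too no mitoxantrone library overlapped another group, and the combination came closest at replicate 1.

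The p53 targets as a class had a median near the sum, but its sign differed between replicate numbers. Their median was −0.01, with 20 of 42 above 0 and medians of −0.12, 0.06 and 0.09 by number. Below 0 lay 33 of 42 at number 1, and above 0 lay 25 at number 2 and 32 at number 3. Mitoxantrone gave a median of 0.25 alone and 0.24 in the presence of gilteritinib. By number these were 0.64, 0.15 and 0.05 alone, and 0.47, 0.13 and 0.18 with gilteritinib. Without Drug-combination replicate 1 the class median was −0.19, and without Mitoxantrone replicate 1 it was 0.28. MDM2, the ubiquitin ligase that restrains p53, had 32.3, 20.6 and 21.1 FPKM in DMSO, 82.8, 27.2 and 26.8 in Mitoxantrone, 34.4, 23.4 and 22.8 in Gilteritinib and 80.3, 28.6 and 30.6 in Drug-combination. Replicate 1 of both mitoxantrone-treated groups stood highest, and the interaction was −0.05 ± 0.66 (SE). Below 0 at an unadjusted p under 0.05 were 3 of 42 members (background 1.48%), BTG2, SERTAD1, a cofactor of cyclin D and CDK4, at −0.71 ± 0.25, and PLK3, a stress kinase, at −0.44 ± 0.16. With numbers 2 and 3 alone, 4 of 42 passed the adjusted threshold below 0 (limma, Benjamini-Hochberg, background 1.27%) and 1 above (background 1.7%).

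CDKN1A, which encodes the CDK inhibitor p21, had 48.4, 19.3 and 19.1 FPKM in DMSO, 113, 45.4 and 45.1 in Mitoxantrone, 20.2, 20.3 and 20.8 in Gilteritinib and 92.1, 30.1 and 30.7 in Drug-combination. At each number both mitoxantrone-treated libraries lay above their counterpart without it. The gene lies at chr6:36676460-36687339 (GRCh38). The interaction was 0.93 at number 1 and −0.65 and −0.66 at numbers 2 and 3, with a mean of −0.13 ± 0.70 (SE), which became 0.31 without Mitoxantrone replicate 1. With numbers 2 and 3 alone it was −0.66 ± 0.05 (adjusted p = 0.0022, limma with Benjamini-Hochberg adjustment), so its sign at numbers 2 and 3 was opposite to that at number 1. GADD45A, a stress gene that binds PCNA, had 3.37, 3.62 and 3.36 FPKM in DMSO, 8.66, 2.61 and 2.54 in Mitoxantrone, 3.53, 1.85 and 2.09 in Gilteritinib and 7.36, 3.9 and 3.69 in Drug-combination. Its interaction was −0.26 at number 1 and 1.14 and 0.91 at numbers 2 and 3, the reverse order of CDKN1A.

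PI3K-AKT core genes had a median of −0.01 and BCL2 family genes of 0.00. At an unadjusted p under 0.05, 1 of 18 BCL2 family genes lay above 0 (background 1.43%) and 0 below. Of 34 PI3K-AKT genes, 0 passed in either direction. With numbers 2 and 3 alone, 3 BCL2 family genes passed the adjusted threshold above 0 (limma, Benjamini-Hochberg, background 1.7%) and 1 below (background 1.27%). Of the PI3K-AKT genes 1 passed above and 0 below. AKT1 had 18.5, 19.0 and 18.7 FPKM in DMSO, 17.2, 18.8 and 17.9 in Mitoxantrone, 16.4, 19.7 and 15.2 in Gilteritinib and 16.5, 16.5 and 16.3 in Drug-combination, with an interaction of 0.01 ± 0.12. FLT3, the target of gilteritinib, gave 0.05 ± 0.15 with between 132 and 171 FPKM in every library. For these genes the interval of about 2 SE still allows departures of that size in either direction.

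**Figure D3:**
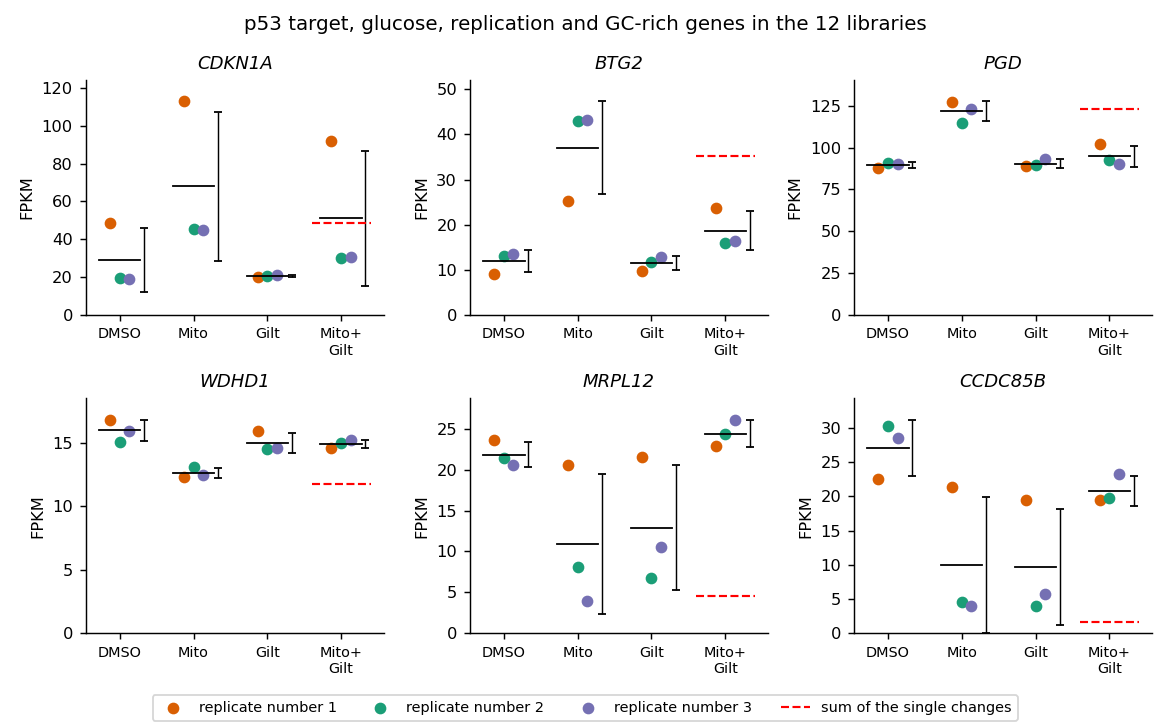
FPKM (vertical axes, from 0) of 6 genes in the 4 groups, drawn as in the plot of the sterol genes: points are libraries colored by replicate number, black lines group means, bars SD (n = 3) and red dashes the sum of the single log2 changes. CDKN1A carries a high replicate 1 (92.1 FPKM in the combination), WDHD1 departs evenly, and MRPL12 and CCDC85B are low in replicates 2 and 3 of the single drugs only.

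Many of the large departures above 0 belonged to GC-rich transcripts. CCDC85B (chr11:65890112-65891635, GRCh38) had 22.5, 30.3 and 28.5 FPKM in DMSO, 21.4, 4.62 and 3.95 in Mitoxantrone, 19.4, 3.92 and 5.71 in Gilteritinib and 19.4, 19.7 and 23.3 in Drug-combination. The low libraries were replicates 2 and 3 of both single drugs, and replicate 1 of each lay near DMSO. The interaction was 3.02 ± 0.82 (SE; unadjusted p = 0.00387, limma). MRPL12, a protein of the mitochondrial ribosome, had 23.6, 21.4 and 20.6 FPKM in DMSO, 20.5, 8.12 and 3.99 in Mitoxantrone, 21.5, 6.71 and 10.6 in Gilteritinib and 22.9, 24.3 and 26.1 in Drug-combination, with an interaction of 2.21 ± 0.66. JUND, an AP-1 subunit, had 85.0, 106 and 133 FPKM in DMSO, 93.1, 52.5 and 47.3 in Mitoxantrone, 68.5, 36.5 and 43.6 in Gilteritinib and 69.0, 78.1 and 88.4 in Drug-combination. H2AFX, the histone variant phosphorylated at DNA breaks, had 111, 127 and 132 FPKM in DMSO, 94.3, 39.2 and 35.2 in Mitoxantrone, 141, 47.3 and 58.7 in Gilteritinib and 94.9, 104 and 124 in Drug-combination. All 4 genes were low in the same 4 libraries. Their transcript GC contents were 67.7% for CCDC85B, 64.6% for MRPL12, 69.7% for JUND and 66.4% for H2AFX, against a median of 47.2% for the protein-coding genes with a mean FPKM of at least 5.

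Among those 7498 genes, 80 of the 152 above 0 at an unadjusted p under 0.05 (52.6%) fell in the highest of 10 equal bins of GC content, from 61.0% to 73.5% GC, as did 7 of the 58 below 0 (12.1%). The median level of these 80 genes relative to their own mean was −0.29 and −0.52 in Mitoxantrone replicates 2 and 3 and −0.28 and −0.18 in Gilteritinib replicates 2 and 3, and it was positive in the other 8 libraries. These genes were chosen by the interaction, which favors low levels after the single drugs. Over all 750 genes of the bin the medians were −0.01 and −0.15 in Mitoxantrone replicates 2 and 3, −0.03 and −0.04 in Gilteritinib replicates 2 and 3, and −0.06 in Gilteritinib replicate 1. With the correction for GC content and length, 71 of 157 genes above 0 (45.2%) still fell in that bin, CCDC85B gave 2.76 and JUND 1.13. Of the genes below 0, 22 of 67 fell in it with the correction, against 7 of 58 without. The part of GC content in these departures was not tested beyond that correction. Below 0 the cholesterol class had a median GC content of 50.3%, and its median interaction was −0.495 after the correction. The other named genes above 0 were MED30 of the Mediator complex at 1.1 ± 0.26, DUSP23 at 0.98 ± 0.24, RAB24 at 1.45 ± 0.41, THOC3 of mRNA export at 0.75 ± 0.21, the histone gene HIST1H3I at 1.43 ± 0.42, AURKAIP1 at 0.74 ± 0.22 and NELFB of the pausing complex at 0.48 ± 0.14. With the correction AURKAIP1 gave 0.48 and NELFB 0.36. MED30, at 44.6% GC, had 19.5, 22.6 and 20.9 FPKM in DMSO, 16.1, 13 and 11.7 in Mitoxantrone, 19.3, 11.5 and 11.9 in Gilteritinib and 17.2, 21.2 and 21.9 in Drug-combination. It was low in the same 4 libraries without being GC-rich. Exons of RAB24 and MRPL12 overlap those of MXD3 and AC139530.2 on the same strand, and exons of CDKN1A and CCNA2 overlap opposite-strand genes, so their reads may be mixed.

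The medians of the remaining classes lay near 0 or moved apart between numbers, while some members departed with numbers 2 and 3 alone. Cytosolic ribosomal protein genes had a median of −0.08 with 64 of 74 below 0, but 58 of 74 lay above 0 at number 2. RPL13, of the large subunit, was the member past the unadjusted threshold, at 1.1 ± 0.36. Reads of ribosomal protein and histone genes can be shared with near-identical copies. Replication-dependent histone genes had a median of 0.04 and medians of −0.16, 0.36 and −0.11 by number. At an unadjusted p under 0.05, 4 of 50 lay above 0 (background 1.43%) and 0 below. With the replicate block these were 6 above (background 3.56%) and 1 below (background 3.84%). With numbers 2 and 3 alone, 3 passed the adjusted threshold above 0 (limma, Benjamini-Hochberg, background 1.7%) and 0 below. Ribosome biogenesis genes gave 0.00, nuclear respiratory chain genes 0.01, ATF4 response genes −0.06, interferon response genes −0.09, and monocyte and granulocyte differentiation genes −0.09. With numbers 2 and 3 alone, 6 of 31 ATF4 response genes passed the adjusted threshold below 0 (limma, Benjamini-Hochberg, background 1.27%) and 0 above. Of 22 monocyte and granulocyte genes 5 passed below and 1 above, and of 51 respiratory chain genes 0 passed below and 5 above (background 1.7%). Mitochondrially encoded genes gave 0.03. There Gilteritinib and Drug-combination replicate 1 lay below DMSO by medians of −1.05 and −1.0, which cancel in the interaction. Small noncoding RNAs of RNA polymerase III and ribonucleoproteins gave −0.16, with −0.48 at number 3 and 0.02 at number 1.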

How the data were processed

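The series holds 12 RNA-seq libraries of MV4-11 cells in 4 groups of 3. The authors deposited 1 table of FPKM values per Ensembl gene and library. Per the labels, RNA was amplified by Geo-seq and libraries were made with a transposase kit, and the submitters' processing notes name Bowtie 0.12.9, Cufflinks 2.1.1, HTSeq, DESeq2 and the mouse build mm10. The gene identifiers are human, and 40169 of 43876 are in GENCODE release 29, used here for symbols, coordinates and lengths (GRCh38); the build of the alignment is uncertain. The strand setting is not given in the sources used here.

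Values were taken as log2(FPKM + 1), so changes of low genes are understated. The filter kept genes that reached 1 FPKM in 3 or more libraries. The interaction was fitted with limma 3.58.1 in R 4.3.3 (1 mean per group, trended prior variance) and adjusted by Benjamini-Hochberg over 18574 genes. Interactions at single replicate numbers used the 4 libraries of that number. Numbers were taken to pair the libraries. Deviations from group means correlated between 0.165 and 0.657 for the 18 same-number pairs and between −0.562 and 0.434 for the 36 other pairs. Replicate 1 stood apart, but a pairing of number 2 apart from number 3 was not shown. DMSO replicate 2 correlated at 0.418 with Mitoxantrone replicate 3 and at 0.165 with Mitoxantrone replicate 2. The fit with the replicate block is given for several counts. Fragment counts, read from FPKM steps and exon length, were whole (tolerance 0.05) in all 12 libraries for 54.9% of 11892 genes, too few for a count test. In the shallowest library of a named gene the counting error was at most 16.7% (coefficient of variation, counting error only).

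The 24 classes, 4 marker lists and the members were chosen with earlier results of these data known. Named genes were FLT3, CDKN1A, AKT1, CDK2 and CCNA2; in each direction the 10 protein-coding genes of smallest p with a mean FPKM of at least 5 and 1 sign at all 3 numbers; and the 2 members of smallest p with a mean FPKM of at least 5 in each class. No gene passed the adjusted threshold. Some genes are not reported here. A further 16 genes, and those named to complete a count of 5 or fewer, were added after values were seen: HMGCS1, SQLE, EGR1, PIM1, MVD, STARD4, EBP, INSIG1, DHCR7, PRIM2, RFC3, RFC1, SERTAD1, PLK3, MDM2 and GADD45A. Alternatives were a replicate block, a pseudocount of 0.1, no filter, a mean FPKM of at least 5, protein-coding genes only, median-ratio and quantile scaling, linear FPKM, no variance trend, leaving out each library, and replicate numbers 2 and 3 only. The GC and length correction (lowess, fraction 0.2, statsmodels 0.14.6; 18086 genes), and the pairing of settings with each other, were added after the data were seen. The classes and 5 motifs searched in RefSeq promoters were also chosen then.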

Additional observations from a re-analysis of the deposited data

Results flagged for a closer look

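In 9 of the 83 named genes the change after mitoxantrone alone and the change after mitoxantrone in the presence of gilteritinib went in opposite directions at all 3 replicate numbers. Most named genes were chosen by a small p of the interaction, which is the difference of these changes, so the choice favors such opposition. The share over all genes was not counted. The difference at the level of each gene did not pass the adjusted threshold with all 12 libraries (limma, Benjamini-Hochberg), and the opposition itself was not tested. Above 0 were CCDC85B with an interaction of 3.02, MRPL12 with 2.21 and PIK3R1, the regulatory subunit of PI3K, with 0.13. For CCDC85B the Gilteritinib and Drug-combination levels at replicate number 1 were nearly equal, so the direction there rests on a near tie. Below 0 were DHCR7, the last reductase of cholesterol synthesis, with −0.90, DUSP2 with −0.41, C16orf91 with −0.39, GATC, of the mitochondrial amidotransferase, with −0.33, PPIB, cyclophilin B, with −0.28 and PKM with −0.26.

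C16orf91 had 14.5, 15.1 and 14.8 FPKM in DMSO, 16.1, 16.8 and 17.2 in Mitoxantrone, 16.1, 16.5 and 17.9 in Gilteritinib and 14.0, 14.8 and 13.9 in Drug-combination. Both single drugs lay above DMSO and the combination at or below it in each replicate, and its interactions were −0.33, −0.30 and −0.53. GATC behaved alike with 6.41, 6.87 and 6.45 FPKM in DMSO, 6.97, 7.54 and 7.07 in Mitoxantrone, 7.37, 7.71 and 7.4 in Gilteritinib and 5.98, 6.52 and 6.42 in Drug-combination. Groups of 3 are too small for a test of single outlying libraries.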

How the results depend on the processing

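At an adjusted p under 0.05 (limma, Benjamini-Hochberg) the count of 0 became 3 without a filter on low values (RNU7-125P, SUB1P2 and AC091544.3, none above 0.438 FPKM), 552 with replicate numbers 2 and 3 only, 408 with those numbers and the replicate block, and 450 with those numbers and the GC and length correction, 364 of them among the 552. Leaving out single libraries gave between 0 and 1, the 1 being ANKRD28 at −0.84 without Mitoxantrone replicate 1. At an unadjusted p the count of 541 became 1375 with the replicate block, 1406 with the block and the correction, 1438 without a filter, 273 at a mean FPKM of at least 5, 333 for protein-coding genes, 2997, 3045 and 2917 for numbers 2 and 3 alone, with the block and with the correction, and between 334 and 1170 with 1 library left out, highest without Mitoxantrone replicate 1 and lowest without Gilteritinib replicate 2. The share above 0 ranged from 26.4% without Mitoxantrone replicate 3 to 64.8% at a mean FPKM of at least 5, against 49.2%. The other count settings stayed within 1.5 times.

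Of the class medians, 10 of 24 moved by less than the spread between replicate numbers throughout. That spread (SD) was the class's own, from 0.0193 for ATF4 response genes to 0.441 for cholesterol synthesis genes. Classes whose replicate numbers differ most therefore pass most easily, and the 10 are no measure of stability. The cholesterol median, among the 10, ranged from −0.636 to −0.352 with 1 library left out. With numbers 2 and 3 alone, with or without the block, ERK feedback genes gave −0.301 and antigen presentation genes −0.283, and with the correction antigen presentation genes gave −0.266 and BCL2 family genes −0.0849. The correction gave −0.0322 for ATF4 response genes, with or without the replicate block. At a mean FPKM of at least 5, immediate early genes gave −0.144 and HOXA genes 0.239. On linear FPKM the median, in percent of the mean, was −0.928 for histone genes and −2.64 for BCL2 family genes, opposite to the log2 scale. With 1 library left out, medians ranged from −0.239 to 0.0963 for ATF4 response, −0.472 to −0.012 for ERK feedback, −0.307 to 0.11 for STAT5 targets, −0.629 to 0.355 for polymerase III RNAs, −0.354 to −0.0657 for antigen presentation, −0.275 to −0.0481 for glycolysis, −0.472 to −0.0973 for immediate early, −0.451 to 0.436 for mitochondrially encoded, −0.29 to 0.038 for monocyte and granulocyte, −0.193 to 0.284 for p53 targets and −0.106 to 0.118 for ribosome biogenesis genes. The cause was not tested.

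Of 83 named genes, 9 changed sign under some setting. The adjusted threshold was passed by 50, in settings with replicate numbers 2 and 3 only, where 2.97% of all genes passed without block or correction. Most named genes were chosen by a small p of the interaction, so the 50 are no measure of robustness. With numbers 2 and 3 alone, with or without the block, FLT3 gave −0.02 and AKT1 −0.03, and with the correction FLT3 −0.03, AKT1 −0.14 and PIM3 −0.04. The correction on all libraries gave AKT1 −0.03 and PIM3 −0.04. With 1 library left out, values ranged from −0.06 to 0.11 for AKT1, −0.65 to 0.31 for CDKN1A, −1.39 to 0.13 for EGR1, −0.07 to 0.14 for FLT3, −0.52 to 0.48 for MDM2, −0.61 to 0.16 for MT-ATP8, −0.21 to 0.49 for MT-CO1 and −1.68 to 0.12 for PIM1.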
